A study of Drosophila melanogaster with 3 samples.

Results

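The 10 genes described here encode 6 subunits of the MCM helicase (*Mcm2*, *Mcm3*, *dpa*, which is the *Mcm4* gene, *Mcm5*, *Mcm6* and *Mcm7*), 1 subunit of the origin recognition complex (*Orc1*) and the E2F factors *E2f1*, *E2f2* and *Dp*. They were chosen by name from 13968 protein-coding genes and examined in a chromatin immunoprecipitation (ChIP-seq) study of Coop (CG1621), a protein known as a corepressor that binds Pangolin, the TCF factor of Wingless signalling. The material was 1 transgenic line of *Drosophila melanogaster* that stably expresses Coop with GFP fused to its C-terminal end, taken as whole prepupae aged 24 h with males and females pooled, in 3 biological replicates of 1 group. Chromatin was sonicated to 200 to 800 bp. The label fields do not all say the same thing, since the description names an input control while the assay title, the antibody and the deposited notes point to ChIP of Coop with its own control. ChIP was taken as the correct reading, and all values below rest on it. No second condition and no untagged line were analysed here, and the sequence carried by the transgene is not given in the sources used here. In whole animals, a site occupied in few cells and a site weakly occupied in many cannot be told apart.

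In each cell cycle the origin recognition complex, with Cdc6 and Cdt1 (dup in *Drosophila*), loads the MCM ring onto DNA, and kinases then convert the ring into the active helicase. The heterodimer of E2F1 and DP activates genes needed for S phase, including many that encode replication proteins, whereas E2F2 acts with the RB proteins in repression and is a subunit of the dREAM complex. In the prepupa, imaginal cells divide while larval tissues, many of them polyploid from endocycles, are being replaced.

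E2F factors bind short sites near start sites, and the letters of 4 such words (TTTGGCGC, TTTCCCGC, TTTCGCGC and TTTGCCGC, on either strand) were searched from 250 bp before to 50 bp after each transcription start site (TSS). The MCM genes below are shown because each carries 1 such word close to its only start site although none of them had a thresholded Coop summit there. Each sequence is 30 bases of the RefSeq release 6 genome (the dm6 build), written 5′ to 3′ on the strand of the gene, with the word in capitals and 11 bases on each side. They lie at chr3R:8264995-8265024 (*Mcm2*), chrX:5323838-5323867 (*Mcm3*), chr3R:10788545-10788574 (*Mcm5*) and chrX:6674389-6674418 (*Mcm6*), all on the plus strand and in or at the 5′ untranslated region. For *Mcm5* and *Mcm6* the capitals show the reverse complement, because the word reads on the opposite strand.
Mcm2: ttagcaaacatTTTCCCGCgcattttcgca
Mcm3: cacactacgctTTTCCCGCgaaaaaacttt
Mcm5: cggtaattttgGCGGCAAAatattcgcaca
Mcm6: gtcagaaaaagGCGCCAAAaccgagcaaag
The first base of the word on the gene's strand lay 36 bp downstream of the start site of *Mcm2*, 6 bp upstream in *Mcm3*, 32 bp downstream in *Mcm5* and 13 bp downstream in *Mcm6*. Among all 10 genes, 6 held an E2F word in this window, against 1212 of 13968 genes (8.68%). A match of letters describes the sequence and does not show that E2F binds there.

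The authors deposited 5 lists of regions on dm6: 1 thresholded list of 6626 peaks, 1 pooled list of 30000 regions and 1 list of 30000 regions for each replicate. Signal is the value of the authors' peak caller. Its scale differs between lists, so it is read as a rank within 1 list, with rank 1 the strongest. The thresholded peaks were the 6626 strongest of the pooled list, with signals of 171 to 8603 (median 287), so a thresholded peak has the same rank in both lists. Read counts were not analysed here and the depth of the libraries is therefore unknown. The deposited notes name 1 control alignment for all 3 libraries, so that an error in it could affect all of them. A summit within 500 bp of a TSS of a gene is called a promoter summit, and offsets are negative upstream.

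Thresholded promoter summits lay at 4 of the 10 genes, *dpa*, *Orc1*, *E2f1* and *Dp*, against 2953 of 13968 protein-coding genes (21.1%). Among the 6626 strongest regions of each replicate, the number of these genes with a promoter summit was 6 in replicate 1, where 25.9% of all genes had one. In replicate 2 it was also 6, with 21.3% of all genes, and in replicate 3 it was 5, with 18.1%. The mean was 5.67 ± 0.577 genes, or 56.7% ± 5.77 of the 10, against 21.8% ± 3.93 of all genes (SD, n = 3 each). *Mcm2*, *dpa*, *Orc1*, *E2f1* and *Dp* made up the 5 that were counted in every replicate, *Mcm2* in replicate 2 through a summit nearer to the neighbouring gene *RPA1*. *E2f2* was added in replicate 1 alone and *Mcm5* in replicate 2 alone. In the pooled list 6 of the 10 genes had a promoter summit, which adds *Mcm2* and *Mcm5* to the thresholded 4, against 41.3% of all genes. In the whole replicate lists the count was 9 in replicate 1, 7 in replicate 2 and 7 in replicate 3, against 51.5%, 46.1% and 36.5% of all genes in that order. Since 10 named genes are few and were not drawn at random, these counts are descriptions and carry no test.

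**Figure D1:**
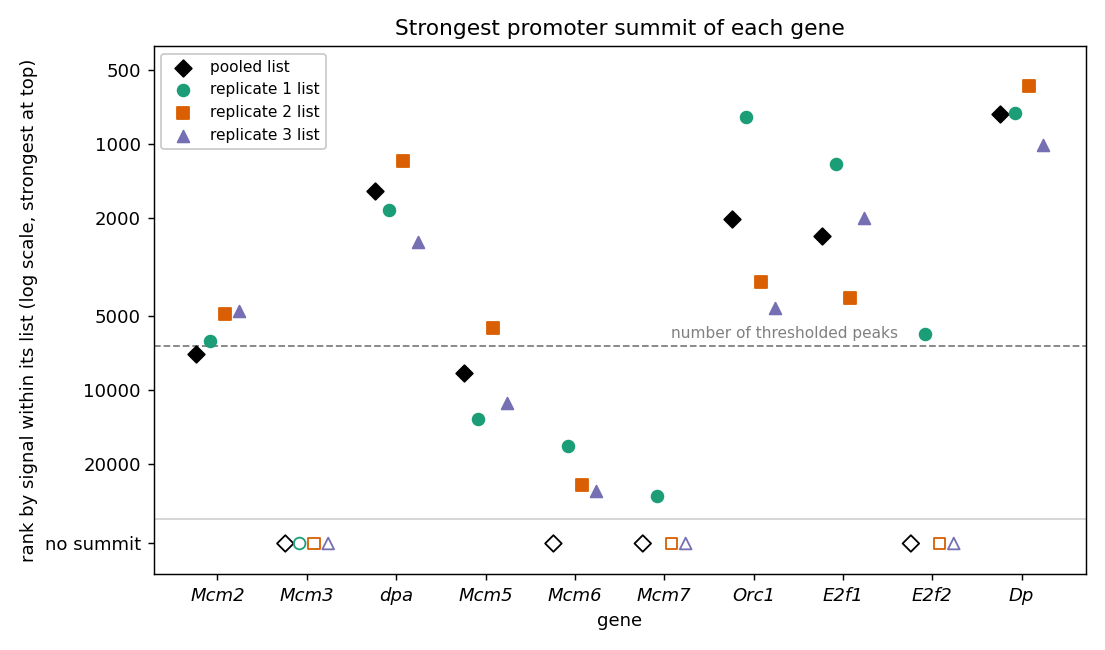
Rank of the strongest promoter summit (within 500 bp of a start site) of each gene in the pooled list and in the list of each replicate, on a log scale with the strongest at the top; the dashed line marks rank 6626, and open symbols mark a gene with no promoter summit in that list. *Dp*, *dpa*, *Orc1* and *E2f1* lie above the line in all 4 lists, *Mcm2* lies above it in the 3 replicates (in replicate 2 by another summit, nearer to *RPA1*) and just below it in the pool, and *Mcm3* has no promoter summit in any list.

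The MCM genes differed from one another. *Mcm2* (FBgn0014861, 3R:8264970-8267924, plus strand) had no thresholded peak in the gene or within 5 kb, but its pooled promoter summit had a signal of 161 at rank 7139, just under the lowest thresholded signal of 171. At this site, within 100 bp of the pooled summit, the signal was 56.2 (rank 6303) in replicate 1, 29.3 (rank 17543) in replicate 2 and 73.9 (rank 4795) in replicate 3. Replicates 1 and 3 thus held the site among their strongest 6626 regions, at -52 and -81 bp from the start site, and replicate 2 did not, at -60 bp. Replicate 2 had a stronger and separate summit at -268 bp (signal 94.0, rank 4913), which was 251 bp upstream of *RPA1* and so nearer to that gene. The pooled summit, at -89 bp, was itself 430 bp upstream of the start of *RPA1*, which encodes the large subunit of the single-strand DNA binding protein RPA and is transcribed away from *Mcm2*. The pooled summit region is printed here because it is the strongest site near an MCM gene that missed the threshold. It spans chr3R:8264781-8264969 on the plus strand, up to the base before the TSS, with the 11 bases centred on the summit in capitals and a GC content of 34.9%.
Mcm2 promoter: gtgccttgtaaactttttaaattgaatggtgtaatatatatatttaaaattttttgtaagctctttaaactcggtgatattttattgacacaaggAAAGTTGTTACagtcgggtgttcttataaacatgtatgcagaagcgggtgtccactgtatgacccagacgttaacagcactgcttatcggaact

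*Mcm5* (FBgn0017577, 3R:10788524-10791150, plus strand) had 2 weaker promoter summits in the pooled list and none in the thresholded one. The stronger had a signal of 137 (rank 8563) and lay 219 bp upstream of *Mcm5* and 79 bp upstream of *Art1*, an arginine methyltransferase gene, which was the nearer of the genes. Within 100 bp of it, replicate 1 gave 29.9 (rank 13075) and replicate 2 gave 85.2 (rank 5616), and replicate 3 had no summit. Replicate 2 alone placed it among its strongest 6626. The weaker, with a signal of 70.6 (rank 16126), lay 20 bp upstream of *Mcm5*, its nearest gene. Replicates 2 and 3 had it at -1 bp (signal 20.9, rank 23337) and -29 bp (signal 37.2, rank 11290), and replicate 1 had no summit within 100 bp.

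*Mcm3* (FBgn0284442, X:5323855-5326738), *Mcm6* (FBgn0025815, X:6674387-6677176) and *Mcm7* (FBgn0020633, 3L:8891596-8894310), all on the plus strand, had no promoter summit in the thresholded or the pooled list. *Mcm6* had weak promoter summits at rank 16831 in replicate 1, 24395 in replicate 2 and 25760 in replicate 3, with signals of 23.2, 19.8 and 17.6 in that order. The first was 21 bp upstream of *Mcm6*, whereas those of replicates 2 and 3, at -389 and -374 bp, were nearer to another gene. All were in the weaker part of their lists, with 56.1%, 81.3% and 85.9% of the regions of replicates 1, 2 and 3 at or above them. *Mcm7* had 1 weak promoter summit in 1 replicate, at rank 26874 of replicate 1 (signal 14.1), and no summit within 5 kb in the pooled list. *Mcm3* had no promoter summit in any of the 5 lists, and 1 weak summit inside the gene, in replicate 1 (signal 18.9, rank 20421). Among the subunit genes of 1 helicase, promoter summits thus ranged from a thresholded one at *dpa* to none at *Mcm3*.

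Thresholded peaks in reach of *Mcm3* and *Mcm6*, that is in the gene or within 5 kb of it, lay at the promoters of neighbours. The peak near *Mcm3* (X:5322579, signal 253, rank 4032) was 1276 bp upstream of *Mcm3*. It lay in a 5′ untranslated region of *Rnp4F*, an RNA-binding protein gene, 90 bp upstream of a start site of that gene. It was among the strongest regions of replicate 2 (signal 133, rank 3042), was weak in replicate 1 (38.5, rank 10003) and had no summit within 100 bp in replicate 3. The peak near *Mcm6* (X:6679351, signal 1480, rank 160) was 233 bp upstream of *ND-ASHI*, a gene of a mitochondrial complex I subunit, in an intron of *Fum1*, a fumarase gene. It ranked 221, 207 and 136 in replicates 1, 2 and 3. This was the strongest peak in reach of any MCM gene outside the neighbourhood of *Coop*, yet it lay 4964 bp downstream of the *Mcm6* start site.

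*dpa*, whose protein is MCM4, was the MCM gene with a thresholded promoter peak. The gene (FBgn0015929, 2R:7496702-7500145, minus strand) has 2 start sites 268 bp apart, and the summit at 7500004 lay between them in the 5′ untranslated region, 127 bp upstream of 1 and 141 bp downstream of the other. Its signal was 472 at rank 1554. The replicates gave 121 (rank 1857), 249 (rank 1179) and 115 (rank 2493) in the order 1 to 3, so the peak was found in all 3, with a summit within 100 bp among the strongest 6626 regions of each. On average 6.14% ± 2.19 of a replicate's regions ranked at or above it (SD, n = 3). *didum*, the myosin V gene, starts 143 bp from the same summit on the other strand, and the peak cannot be assigned to 1 of these divergent genes by position. Of the 4 genes with a thresholded promoter peak, *dpa* and *Orc1* held an E2F word within 100 bp of that summit. In *dpa* the centre of the word nearest the summit lay 43 bp from it, and the promoter window held 2 words, 87 and 6 bp upstream of the inner start site.

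*dpa* is also the neighbour of the tagged gene. *Coop* (FBgn0263240, 2R:7490836-7492589) is separated from *dpa* by 4112 bp, and their first start sites are 7556 bp apart. The peak at the *Coop* start (signal 3745) ranked 11 in the thresholded list, and 12, 53 and 10 in replicates 1, 2 and 3. Within 5 kb of the *Coop* TSS there were 8 thresholded summits (8.0 per 10 kb), against 0.496 per 10 kb over the arm. From 5 to 10 kb there was 1 (1.0 per 10 kb), which was the *dpa* promoter summit itself, from 10 to 20 kb there were 3 (1.5 per 10 kb), and from 20 to 40 kb there were 8 (2.0 per 10 kb). The density was thus highest within 5 kb of *Coop*, and it was above that of the arm in each range out to 40 kb. The *dpa* summit was weaker than the 947 (rank 458) of the peak between *Coop* and *dpa* at *CG1620*. Of the 5 thresholded summits in reach of *dpa*, 3 had *Coop* and 1 had *CG1620* as the gene of the nearest start site. Whether sequence from the transgene adds to the signal at *dpa* was not tested, and without *dpa* the count of genes with a thresholded promoter summit was 3 of 9.

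**Figure D2:**
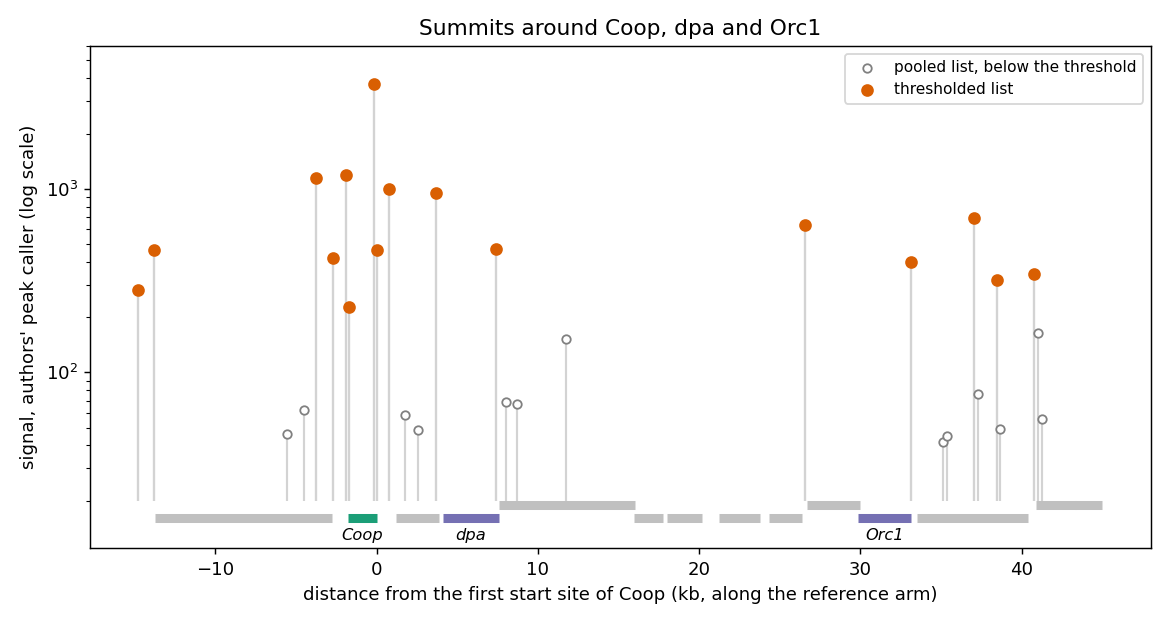
Signal of each summit (log scale) against distance from the first start site of *Coop* along the reference arm, with genes drawn as bars in 2 rows by strand, *Coop* in green and *dpa* and *Orc1* in violet; filled points are thresholded and open points are in the pooled list below the threshold. The highest point, 3745, is at *Coop*, the point at the start of *dpa* is at 472 and that at the start of *Orc1* is at 400.

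*Orc1* encodes an ATP-binding subunit of the origin recognition complex and lies 33127 bp from the *Coop* start site, counted between first start sites (FBgn0286788, 2R:7522437-7525716, minus strand). Its promoter summit at 7525745, 29 bp upstream of the only TSS, had a signal of 400 at rank 2017. The replicates gave 190 (rank 776), 117 (rank 3633) and 75.9 (rank 4629) in the order 1 to 3. All 3 replicates held it among their strongest regions, strongest in replicate 1 and weakest in replicate 3, with 2.59%, 12.1% and 15.4% of the regions of replicates 1, 2 and 3 at or above it. An E2F word began 3 bp downstream of the TSS on the opposite strand, and its centre was 35 bp from the summit. Of the thresholded peaks in reach on either side, 1 lay 124 bp upstream of *PIG-G* (signal 633), a gene of GPI-anchor synthesis. The other (691) lay in an intron of *Drat*, 359 bp upstream of an inner start site of that gene. Both were stronger than the peak at *Orc1* itself.

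*Dp*, the dimerisation partner of both E2F proteins, had the strongest promoter peak of the 10 genes. It has 3 start sites (FBgn0011763, 2R:13222433-13228202, plus strand), of which 2 had a thresholded summit within 500 bp. The strongest summit, at 13223414 and 177 bp upstream of the second start site, had a signal of 723 at rank 754. It gave 158 (rank 1108) in replicate 1, 366 (rank 583) in replicate 2 and 200 (rank 1006) in replicate 3. These ranks were close to one another, and on average 2.6% ± 0.71 of a replicate's regions ranked at or above the best *Dp* promoter summit, the highest position of the 10 genes (SD, n = 3). In replicate 1 that best summit was the one at the first start site (signal 193, rank 750). A second intronic summit, 477 bp downstream of the same start site, had a signal of 382 and was also found in all 3 replicates. The third, 41 bp upstream of the first start site, had a signal of 336 and was found in replicates 1 and 2, with no summit within 100 bp in replicate 3. That summit lay 54 and 67 bp from 2 start sites of *Fsn*, an F-box protein gene on the other strand, and so is shared by both genes.

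The *E2f1* locus held more thresholded peaks than any other of these genes. *E2f1* encodes the activator E2F and spans 40568 bp (FBgn0011766, 3R:21620304-21660871, minus strand) with 5 start sites, of which 3 had a thresholded summit within 500 bp. The stronger promoter summit lay in an intron at 21638607, 113 bp upstream of an inner TSS, with a signal of 359 at rank 2360. The replicates gave 150 (rank 1203), 73.6 (rank 6759) and 132 (rank 2009) in the order 1 to 3. Replicate 2 thus fell just outside its strongest 6626 regions, and the peak was found in 2 of 3 replicates. The other promoter summit, 33 bp downstream of the first start site, had a signal of 272 at rank 3596. It had no summit within 100 bp in replicate 1, although a region with a signal of 107 (rank 2348) and its summit 154 bp away overlapped the peak, and it gave 105 (rank 4230) in replicate 2 and 88.7 (rank 3724) in replicate 3. Taking the best promoter summit of each replicate, 8.27% ± 5.23 of regions ranked at or above *E2f1* (SD, n = 3), so a promoter summit of *E2f1* was strong in every replicate although not at the same start site.

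Inside *E2f1* there were 11 thresholded summits, or 2.71 per 10 kb, against 0.495 per 10 kb over the genome, and 9 of the 11 were away from its start sites. The other 356 protein-coding genes of 30 to 50 kb held a median of 1 summit (range 0 to 19), and 4 of them (1.12%) held as many or more. In the pooled list *E2f1* held 46, against a median of 7 (range 0 to 48), and 1 gene (0.281%) held as many or more. This range of lengths was chosen after the values were seen, so the comparison is a description. Introns held 9 of the 11 summits, and 2 were found in all 3 replicates. These were at 21641774 (signal 432, rank 1791) and at 21646416 (signal 314, rank 2897), which lie 3280 and 7922 bp upstream of the nearest *E2f1* start site. The summit at 21641774 was the strongest in the gene, with 59.1 (rank 5902), 226 (rank 1366) and 158 (rank 1516) in replicates 1, 2 and 3. The summit at 21650367 (signal 414) had a match within 100 bp among the strongest regions of replicate 3 alone, but a strong region of replicate 2 (signal 255, rank 1133) overlapped the peak with its summit 118 bp away. Beyond the 3′ end of *E2f1*, 4 more thresholded summits were in reach, all nearest to *InR*, the insulin receptor gene, the strongest at 752 and rank 705.

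**Figure D3:**
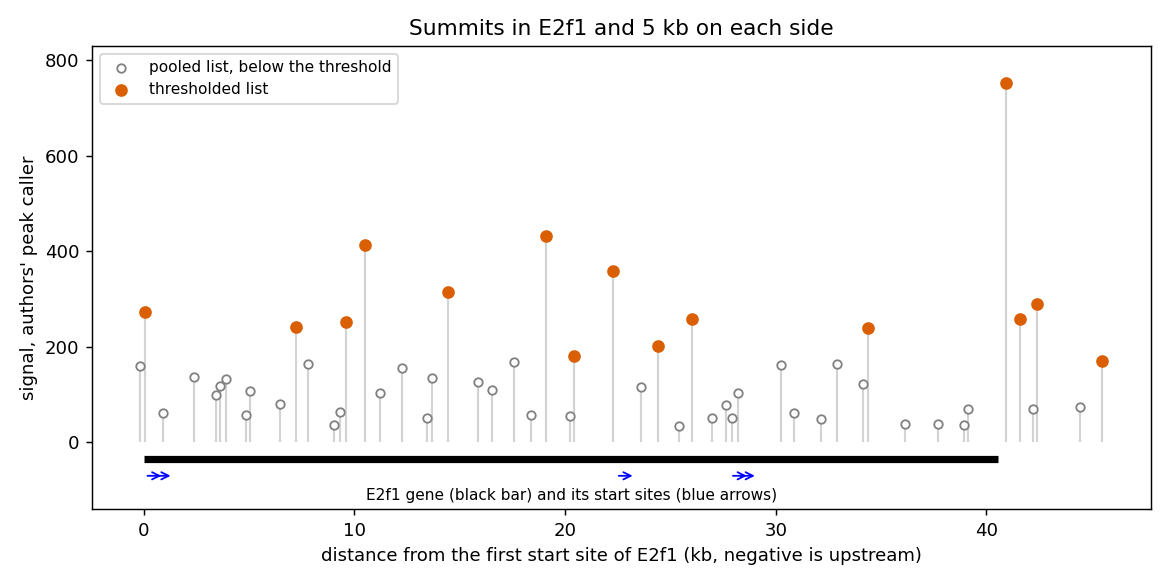
Signal of each summit in *E2f1* and 5 kb on either side against distance from its first start site, with the gene as a black bar and its 5 start sites as blue arrows; filled points are thresholded and open points are in the pooled list below the threshold. The 11 thresholded summits inside the gene lie between 181 and 432 and are spread along it, and the highest point, 752, lies past the 3′ end.

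The 2 regions below are the promoter summit of the inner *E2f1* start site and the strongest summit in the gene, shown because they differ in base composition and in GAGA words. Neither holds an E2F word. Each spans 100 bases of dm6 on either side of the summit base and is written 5′ to 3′ on the minus strand, the strand of the gene. Capitals mark GAGA words (GAGAG or its reverse complement CTCTC), the core recognised by GAGA factor. The promoter region, chr3R:21638507-21638707, has a GC content of 51.2% and the intronic region, chr3R:21641674-21641874, of 31.3%.
E2f1 inner promoter: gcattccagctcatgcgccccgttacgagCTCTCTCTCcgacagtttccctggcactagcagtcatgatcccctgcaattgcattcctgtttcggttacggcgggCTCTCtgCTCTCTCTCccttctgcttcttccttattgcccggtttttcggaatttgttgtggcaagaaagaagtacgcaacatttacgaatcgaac
E2f1 intron: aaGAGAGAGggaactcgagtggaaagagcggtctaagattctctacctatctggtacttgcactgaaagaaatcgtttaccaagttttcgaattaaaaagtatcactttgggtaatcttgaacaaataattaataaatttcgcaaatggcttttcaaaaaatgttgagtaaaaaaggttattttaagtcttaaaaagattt
The promoter region held 7 GAGA words, counting overlapping matches, with the centre of the nearest 7 bp from the summit. The intronic region held 2, the nearer 94 bp away. Other in-gene summits of *E2f1* ranged up to 12 words, at 21626509 in a 5′ untranslated exon. GAGA words were searched after the values were seen, and they were within 100 bp of 1 of the 7 thresholded promoter summits of the 10 genes, against 34.2% of all 2683 promoter summits.

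*E2f2* (FBgn0024371, 2L:21154293-21156749, minus strand), the repressor E2F, differed in its lists from *E2f1* and *Dp*. It had no promoter summit in the thresholded or the pooled list, and none in replicates 2 and 3. In replicate 1 the strongest lay 40 bp upstream of a start site with a signal of 58.8 (rank 5931), and 16 bp from a start site of *Mpp6*. The thresholded peak in reach (2L:21158692, signal 682, rank 838) was 81 bp upstream of *Coq3*, a ubiquinone synthesis gene, and 1943 bp upstream of *E2f2*. It gave 147 (rank 1254) in replicate 1, 305 (rank 826) in replicate 2 and no summit within 100 bp in replicate 3. A promoter summit of *E2f2* was thus seen in 1 replicate of 3.

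**Figure D4:**
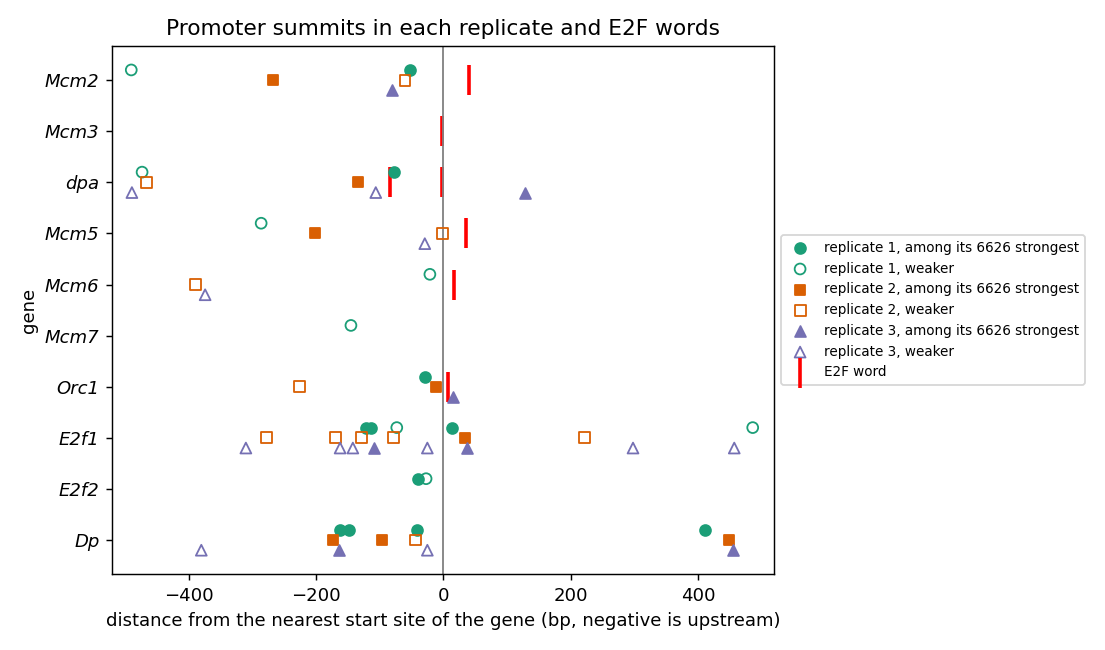
Distance of each promoter summit from the nearest start site of its gene (bp, negative upstream) in the 3 replicate lists, filled where the summit is among the 6626 strongest of its list and open where it is weaker; red bars mark E2F words in the promoter window. Filled symbols of all 3 replicates appear at *Mcm2*, *dpa*, *Orc1*, *E2f1* and *Dp*, and *Mcm3* has an E2F word but no summit. At *dpa* the nearest start site differs between replicates. Its symbols at -134 bp (replicate 2, position 7500011) and 128 bp (replicate 3, position 7500017) therefore mark nearby positions. The *dpa* words are drawn from the inner start site.

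Across the 10 genes there were 7 thresholded promoter summits, with a median signal of 382 (range 272 to 723, median rank 2166). All 2683 thresholded promoter summits of the genome had a median of 294 (range 171 to 8603, median rank 3199). Of the 7, 4 were found in all 3 replicates (57.1%), against 1294 of all promoter summits (48.2%). These 4 lay at *dpa*, *Orc1* and *Dp*, and counting only such summits left 3 of the 10 genes, without *E2f1*, against 10.7% of all genes. All 7 summits thus lay inside the range of the other bound promoters, away from both its ends.

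With the wider window, 7 of the 10 genes had a thresholded summit in the gene or within 5 kb, against 51.2% of all genes, and 9 had one in the pooled list, against 71.5%. The exception in the pooled list was *Mcm7*. Gene length bears on this window, with a median of 2919 bp for the 10 genes and 2164 bp for all genes. Among genes under 6 kb, 6 of the 9 were in reach of a summit, against 46.8% of 11000. In all, 29 thresholded summits were in reach, of which 7 were promoter summits of these genes. Of the other 22, 13 had a start site of another gene as the nearest and 9 one of the gene itself, and those 9 were all inside *E2f1*.

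The number of start sites moved with the promoter calls. Genes with 1 TSS had a thresholded promoter summit in 15.3% of 10269 cases, genes with 2 in 31.4%, genes with 3 in 44.7% and genes with 5 in 65.3%. Of the 6 genes here with 1 TSS, 1 was bound (*Orc1*), and 5 of the 6 encode MCM subunits. Of those with 2, *dpa* was bound and *E2f2* was not, while *Dp* with 3 and *E2f1* with 5 were both bound. The part of start-site number in the difference between the MCM genes and the E2F genes was not tested. Nor was its part in the contrast of 4 of the 10 genes with 21.1% of all genes.

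With 10 genes, it cannot be decided whether E2F words and Coop peaks go together, and the counts depend on the list. Of the 6 genes with a word in the promoter window, *dpa* and *Orc1* had a thresholded promoter summit and *Mcm2*, *Mcm3*, *Mcm5* and *Mcm6* had none. Of the 4 without a word, *E2f1* and *Dp* had a summit and *Mcm7* and *E2f2* had none. In the pooled list *Mcm2* and *Mcm5*, which hold a word, also had a promoter summit, while the genes without a word were unchanged. Over all genes, 31.2% of those with a word had a thresholded promoter summit, against 20.2% of those without. At the summits themselves, a word was within 100 bp of 2 of the 7 promoter summits of these genes, against 4.58% of all 2683. The DRE, TATCGATA, the site of the replication-related factor DREF, was in the promoter window of 0 of the 10 genes, against 10.2% of all genes. The Pangolin word CTTTGAT was in that window of 1 of the 10, against 6.57%. It was within 100 bp of 0 of the 7 promoter summits, against 2.27% of all.

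To place the 10 genes among their pathway, 59 other genes of replication and of cell cycle control were counted in 5 classes. Of these, 15 (25.4%) had a thresholded promoter summit, against 21.1% of all genes. The count depended on the window, with 11 of the 59 at 250 bp, against 17.8% of all genes, and 17 at 1000 bp, against 24.9%. Counted apart from the thresholded list, 9 of the 59 had a promoter summit among the strongest regions of every replicate, against 12.7% of all genes. The 9 include *RPA1*, which had no thresholded promoter summit and whose summits in the replicates were also counted for *Mcm2*. Another 31 had one in no replicate, against 68.2% of all genes. In origin recognition and licensing 1 of 8 was bound, *dup* (signal 235), which encodes the Cdt1 loading factor. None of the genes of the other ORC subunits had a thresholded promoter summit. However, *Orc4* (168) and *Orc5* (164) had pooled promoter summits just under the lowest thresholded signal of 171. They had promoter summits among the strongest regions of 1 and 2 replicates, in that order. In helicase activation 3 of 11 were bound, *Ctf4* (338), which links helicase and polymerase, the kinase gene *Cdc7* (296) and the GINS subunit gene *Psf3* (188). Among fork polymerases and factors 5 of 22 were bound. The strongest were *RnrS* (359), the small subunit of ribonucleotide reductase, *PolA2* (249), a polymerase alpha subunit, *Gnf1* (195), the large clamp-loader subunit, and *Prim1* (180), a primase subunit. The clamp gene *PCNA* (173), a classical E2F target, was the other, close to the lowest thresholded signal. In the RB and dREAM class 2 of 8 were bound, *mip120* (554) and *lin-52* (292), both dREAM subunits. Both had a promoter summit among the strongest regions of every replicate, which need not be the same summit. In the class headed G1/S cyclins and regulators 4 of 10 were bound, namely *CycA* (290), *Cdk4* (250), *CycE* (205) and *stg* (183), the Cdc25 phosphatase gene. That class was drawn broadly, since *CycA* and *stg* act mainly at mitosis, so its share is not one of G1/S genes alone. Of the bound genes named here, *CycA*, *Gnf1*, *Prim1* and *PCNA* had a promoter summit among the strongest regions of 1 replicate, and the others in 2 or 3. The class shares of 12.5% to 40.0% rest on few genes each, and none was tested against the background.

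**Figure D5:**
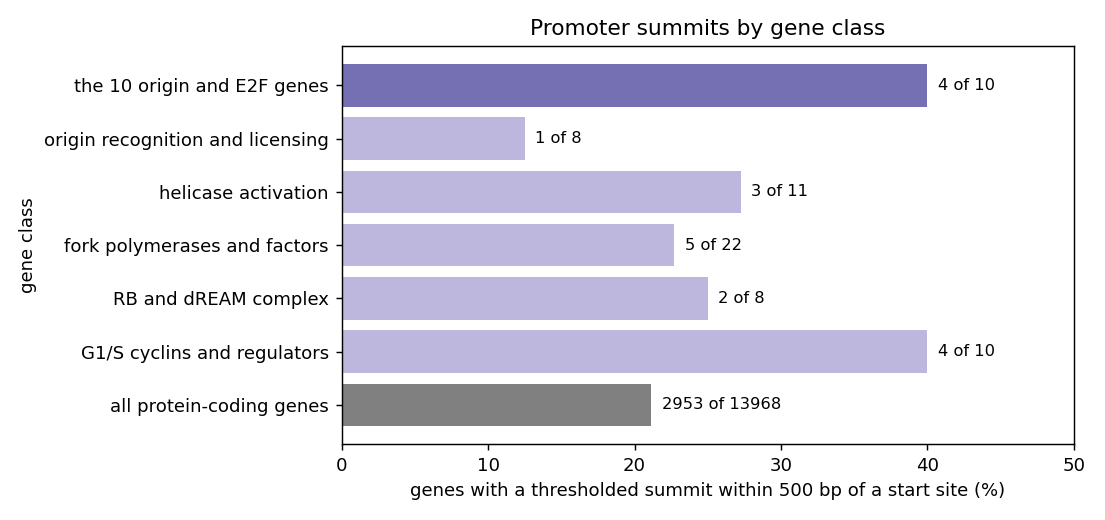
Share of genes with a thresholded summit within 500 bp of a start site (%), for the 10 origin and E2F genes, for each of 5 classes of other genes and for all 13968 protein-coding genes, with counts beside the bars. The 10 genes reach 40.0%, the classes run between 12.5% and 40.0%, and all genes lie at 21.1%.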

How the data were processed

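Binding was measured by ChIP-seq in 3 replicates of 1 group, and 5 deposited region lists on dm6 were read. Per the labels and deposited notes, the authors derived each replicate list from that library and 1 shared control alignment, the pooled list from the 3 libraries together, and the thresholded list from these lists by an irreproducible discovery rate cut. Which caller and which threshold they used is not given in the sources used here. Peaks were ranked by the deposited signal score, within 1 list at a time. The −log10 q column deposited by the authors reads 4.19 at all thresholded peaks and served no ranking. Each deposited list gives its summit as an offset from the region's start, which was converted to a position counted from 1.

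Summits were joined to protein-coding genes of Ensembl release 115 (BDGP 6.54), with 19630 start sites, in Python 3.11.15 with pandas 2.3.3 and NumPy 2.4.6, and plotted with Matplotlib 3.10.9. The script for summit assignment was tested on simulated data. Each replicate list was reduced to its 6626 strongest regions so that lists were of equal length, and a thresholded summit counted as found where one of those regions had its summit within 100 bp. Motifs were searched in the RefSeq release 6 genome. With 1 group there was no test between groups, and replicate values are given as mean ± SD. Depth is unknown, so no interval for counting error is given.

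The genes and lists were chosen with earlier results of these data known. Text names were limited to the 10 genes, *Coop*, genes with a start site within 500 bp of their thresholded promoter summits, and up to 4 bound genes of highest signal per class. *PCNA*, *RPA1*, *Orc4*, *Orc5*, *Mpp6*, *Art1* and the neighbours of summits away from these promoters lie outside that rule and were named after their values were seen. Alternatives changed the promoter window, the number of regions, the assignment to genes, the match distance and the motif, and left out each replicate or *dpa*. The counts without *dpa* and the Pangolin and GAGA words were chosen after seeing the data.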

Additional observations from a re-analysis of the deposited data

How the results depend on the processing

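Of 41 recomputed values, 29 stayed and 12 moved. A count stayed when within 1.5 times, the replicate mean when within 1 SD, and the median signal, which has no replicate error, when it did not change. By these rules the replicate mean could not move when 1 replicate was left out, and the gene counts could not move without *dpa*. Those values are among the 29 but say nothing on stability. The count of 4 genes with a thresholded promoter summit stayed at 4 with windows of 250 bp (17.8% of all genes) or 1000 bp (24.9%), with the nearest start site alone (17.1%), with any base of the interval (22.7%) and in the 3313 strongest peaks (11.9%). It was 3 for summits found in all 3 replicates (10.7%) and 6 in the pooled list (41.3%). The replicate mean of 5.67 genes was 4.67 with the nearest start site alone, 3.0 in the 3313 strongest regions and 7.67 in the whole lists, and 5.5 to 6.0 when 1 replicate was left out. The 7 genes within 5 kb became 3 for the gene body alone and 4 by the gene of the nearest start site. The median signal of 382 was 380 with a 250 bp window, 371 without *dpa* and 436 for the strongest summit of each gene. The 4 summits found in all replicates were 5 whichever replicate was left out, a looser requirement under which the count cannot fall. The 15 bound genes of the pathway classes became 11 with a 250 bp window and 11 with the nearest start site alone. They became 17 with 1000 bp, 16 with any base of the interval and 6 in the 3313 strongest peaks. The 6 genes with an E2F word compare with 2 of 7 promoter summits with a word within 100 bp, with 1 gene for the Pangolin word and with 1 for the GAGA word. No paired analysis was possible because there is 1 group. Depth is unknown, the control was shared, and no untagged line was analysed here, so these values describe the lists as deposited.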
